A study of Mus musculus with 6 samples.

Results

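Cytosolic sulfotransferases move a sulfonate group from the donor 3'-phosphoadenosine-5'-phosphosulfate (PAPS) onto phenols, steroids, bile acids, thyroid hormones and many drugs, which makes them more water-soluble and easier to excrete. The liver is a main site of this reaction, and each family member has its own set of preferred substrates. PAPS is made from inorganic sulfate and ATP, much of the sulfate comes from cysteine breakdown, and several nuclear receptors of the hepatocyte are known to act on the *Sult* genes. Here the family was followed through 10 genes chosen by symbol, *Sult1a1*, *Sult1b1*, *Sult1c2*, *Sult1d1*, *Sult1e1*, *Sult2a1*, *Sult2a2*, *Sult2a8*, *Sult3a1* and *Sult5a1*. All 10 were found among the 21528 genes listed above 0 in at least 1 library.

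RNA was sequenced from the livers of 3 wild-type (WT) mice and 3 TRIM24 C52/55A knockin (KI) mice. All 6 were C57BL/6 animals aged 5 months that had been fed a diet with 60% fat for 3 months, which both genotypes share. The knockin was made on C57Bl/6J by genome editing of the endogenous gene and turns a pair of cysteines of the TRIM24 protein into alanine, in all tissues and not in the liver alone, and WT littermates came from crosses of heterozygotes. The question asked of the data was therefore which *Sult* transcripts differ between the genotypes in the fatty-diet liver.

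The deposited values are FPKM, fragment numbers scaled to the length of the transcript and to the size of the library. Between 17709 and 17984 genes were listed per library. FPKM summed to 644619 to 648221 in the WT and to 673244 to 676791 in the KI libraries. *Trim24* stood at 5.54, 4.85 and 5.96 FPKM in WT and at 6.15, 4.31 and 8.46 FPKM in KI, and a codon change cannot be checked by a transcript level. Total counts are unknown, but the smallest steps of the values put 1 fragment at 0.057 to 0.063 FPKM × kb. The 12225 genes whose FPKM averaged 0.5 or more were tested, as log2(FPKM + 1) with limma and Benjamini-Hochberg adjustment over all of them. Of those genes, 200 were higher and 744 lower in KI at an adjusted p under 0.05. All 6 livers expressed the Y-linked *Ddx3y*, at 5.62 to 7.05 FPKM. Of 8 hepatocyte markers, 7 were listed, with a sum of 17052 to 17247 FPKM in WT and 16589 to 19984 FPKM in KI. Of the 7, *Cps1*, of the urea cycle, was called, with 278 to 344 FPKM in WT and 421 to 577 FPKM in KI (log2 difference 0.63, adjusted p = 0.0281). The 7 markers of sinusoidal endothelium summed to 123 to 131 FPKM in WT and 115 to 122 FPKM in KI without overlap, and *Lyve1* was called lower (log2 difference -1.26, adjusted p = 0.0281). The nearest sums were 122.9 FPKM in WT and 121.9 FPKM in KI, and *Lyve1* is part of them. No other marker of the 7 was called. *Clec4g*, *Pecam1*, *Stab2* and *Oit3* differed by -0.04, -0.05, -0.18 and -0.18, and *Kdr* and *Fcgr2b* by 0.08 and 0.01. The 8 Kupffer cell markers summed to 162 to 201 FPKM in WT and to 135, 199 and 136 FPKM in KI. Of 10 fat-cell markers, 7 were highest in KI replicate 2, among them *Adipoq*, *Plin1* and *Lep* at 4.55, 3.32 and 3.98 FPKM there and at no more than 0.127 FPKM elsewhere. Of the 8 tested, *Adrb3* was called, with 7.81, 12.4 and 10.6 FPKM in KI against 1.99 to 2.17 FPKM in WT (adjusted p = 0.000716), whereas *Cfd*, *Pnpla3* and *Cidea* were highest in a WT liver. Together the markers summed to 11.9 to 15.9 FPKM in WT, and to 12.9, 37.9 and 15.8 FPKM in KI replicates 1, 2 and 3.

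Short reads can be assigned to a member only where its sequence differs from the others. Transcripts annotated in GENCODE M21 were cut into all stretches of 31 bases and searched in the transcripts of every other gene. None of the stretches of *Sult1b1*, *Sult1d1* and *Sult1e1* occurred elsewhere. The share was 9.35% for *Sult1a1*, nearly all of it with the gene model *Gm6939*, 2.04% for *Sult1c2*, 2.88% for *Sult2a8* and 3.70% for *Sult5a1*. It was 13.8% for *Sult3a1*, all with *Sult3a2*, 55.6% for *Sult2a1* and 74.5% for *Sult2a2*. The first 60 coding bases of the hydroxysteroid sulfotransferases of the *Sult2a* cluster are shown because they set *Sult2a8* apart from the near-identical *Sult2a1* and *Sult2a2*. They are written from the start codon, 5′ to 3′, with capitals at the bases that differ from *Sult2a8*.

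Sult2a8: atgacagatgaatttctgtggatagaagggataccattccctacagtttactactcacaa

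Sult2a7: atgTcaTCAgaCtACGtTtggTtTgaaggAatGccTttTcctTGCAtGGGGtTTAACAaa

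Sult2a1: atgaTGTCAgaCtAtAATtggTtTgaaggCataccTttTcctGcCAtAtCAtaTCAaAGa

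Sult2a2: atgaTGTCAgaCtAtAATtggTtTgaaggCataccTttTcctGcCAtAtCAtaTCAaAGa

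In this stretch *Sult2a7* differed from *Sult2a8* at 29 bases and *Sult2a1* and *Sult2a2* each differed at 26, while *Sult2a1* and *Sult2a2* were the same at all 60. Over the aligned coding bases, *Sult2a1* and *Sult2a2* were 97.9% identical, and *Sult2a1* and *Sult2a8* 69.5%. Levels of *Sult2a1* and *Sult2a2* are therefore uncertain, as the counting could split shared reads between them. In the *Sult1* branch, *Sult1a1* and *Sult1d1* were 63.9% identical and *Sult1b1* and *Sult1d1* also 63.9%.

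On the log2(FPKM + 1) scale, the largest difference between the genotypes among the members was the fall of *Sult1a1*, the main phenol sulfotransferase of the liver, which acts on simple phenols and on drugs such as paracetamol. *Sult1a1* (ENSMUSG00000030711) lies on chr7:126672865-126676432 of GRCm38, minus strand. Its FPKM were 226, 226 and 220 in WT and 81.5, 111 and 132 in KI. All KI livers lay below all WT livers, and the WT values were closely grouped whereas the KI values were spread. The means were 224 ± 3.27 FPKM in WT and 108 ± 25.3 FPKM in KI (SD, n = 3 each), a ratio of KI to WT of 0.482. *Sult1a1* fell by 1.07 on the log2(FPKM + 1) scale (SE 0.15, 95% interval -1.43 to -0.72, limma adjusted p = 0.00765). The call held in all 15 alternative analyses, with an adjusted p of 0.00238 to 0.0433. The alternative that sums the *Sult2a* rows and the *Sult3a* rows leaves *Sult1a1* as it was, so it nearly repeats the main fit (adjusted p = 0.00764). The deposited interval of *Sult1a1* spans 27.9 kb and is shared with 2 other rows, *Sgf29* and *2510046G10Rik*. *Sgf29*, which encodes a subunit of histone acetyltransferase complexes, differed by -0.11 on the same scale (adjusted p = 0.750), and *2510046G10Rik* by -0.44 (adjusted p = 0.352).

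The *Sult1* members *Sult1d1* and *Sult1c2* were lower in KI as well. *Sult1d1*, known in the mouse for the sulfonation of catecholamines and other phenols, lies at chr5:87554645-87569027 (GRCm38, minus strand). Its FPKM were 38.1, 39.0 and 49.5 in WT and 22.5, 27.0 and 30.7 in KI. The groups did not overlap, and the highest KI liver stood below the lowest WT liver. The means were 42.2 ± 6.33 and 26.7 ± 4.06 FPKM (SD, n = 3 each), and *Sult1d1* fell by 0.64 on the log2(FPKM + 1) scale (SE 0.14, adjusted p = 0.0291). The adjusted p was between 0.0161 and 0.0986 over 15 alternatives and stayed under 0.05 in 9 of them. The 9 include the sum of paralogs, which leaves *Sult1d1* as it was (adjusted p = 0.0291). It was lost when WT replicate 1, 2 or 3 or KI replicate 1 was left out (adjusted p = 0.0641, 0.0620, 0.0986 and 0.0979), and with quantile normalization (0.0610) or no filter (0.0839).

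*Sult1c2*, of the branch that acts on substituted phenols and arylamines, was expressed at a low level (chr17:53829637-53846339, minus strand). Its FPKM were 2.04, 1.74 and 2.15 in WT and 0.338, 0.767 and 1.31 in KI. No KI liver reached the lowest WT liver, and the KI values differed widely among themselves. The means were 1.98 ± 0.210 and 0.804 ± 0.485 FPKM (SD, n = 3 each), a ratio of KI to WT of 0.407, which is lower than that of *Sult1a1*. These values stand for about 10.2 to 67.3 fragments per library. On the log2(FPKM + 1) scale the difference was -0.76 (SE 0.19, adjusted p = 0.0488), and with 0.1 in place of 1 it was -1.35 (adjusted p = 0.0737). The call was kept in 4 of 15 alternatives, with an adjusted p of 0.0139 to 0.164, so it stands at the edge of the threshold. The 4 include the sum of paralogs, which leaves *Sult1c2* as it was (adjusted p = 0.0487). Leaving out any of the libraries other than KI replicate 3 ended it, with an adjusted p of 0.134 without WT replicate 1, 0.0948 without WT replicate 2, 0.164 without WT replicate 3, 0.117 without KI replicate 1 and 0.0754 without KI replicate 2. In *Sult1a1*, *Sult1d1* and *Sult1c2* alike, KI replicate 1 had the lowest and KI replicate 3 the highest of the KI values.

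The opposite was measured for *Sult2a8*, a hydroxysteroid sulfotransferase that acts on bile acids and was the most abundant *Sult* transcript of both genotypes. *Sult2a8* (chr7:14410686-14446769, minus strand) had 296, 352 and 329 FPKM in WT and 444, 386 and 444 FPKM in KI. Every KI liver was above every WT liver, although KI replicate 2 and WT replicate 2 lay close together. The means were 326 ± 28.3 and 425 ± 33.8 FPKM (SD, n = 3 each). On the log2(FPKM + 1) scale *Sult2a8* rose by 0.38 (SE 0.10, 95% interval 0.16 to 0.60, adjusted p = 0.0482). The adjusted p ranged from 0.0286 to 0.164 and was under 0.05 in 6 of 15 alternatives, while the log2 difference stayed between 0.32 and 0.52. The 6 include the sum of paralogs, where all *Sult2a* rows together stand in for *Sult2a8* (log2 difference 0.38, adjusted p = 0.0480). That sum is mostly *Sult2a8*, so it nearly repeats the main fit. The call was lost without WT replicate 1, 2 or 3 (adjusted p = 0.160, 0.0693 and 0.131) and without KI replicate 1 or 3 (0.164 and 0.109). It was also lost with TPM, which rescales each library to the same sum (log2 difference 0.32, adjusted p = 0.0635), without limma's trend (0.0763) and without the filter (0.107). Without KI replicate 2, the liver with the highest fat-cell marker sum, the log2 differences were 0.45 for *Sult2a8* (adjusted p = 0.0286), -1.10 for *Sult1a1* (adjusted p = 0.0156), -0.65 for *Sult1d1* (adjusted p = 0.0456) and -0.76 for *Sult1c2* (adjusted p = 0.0754).

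**Figure D1:**
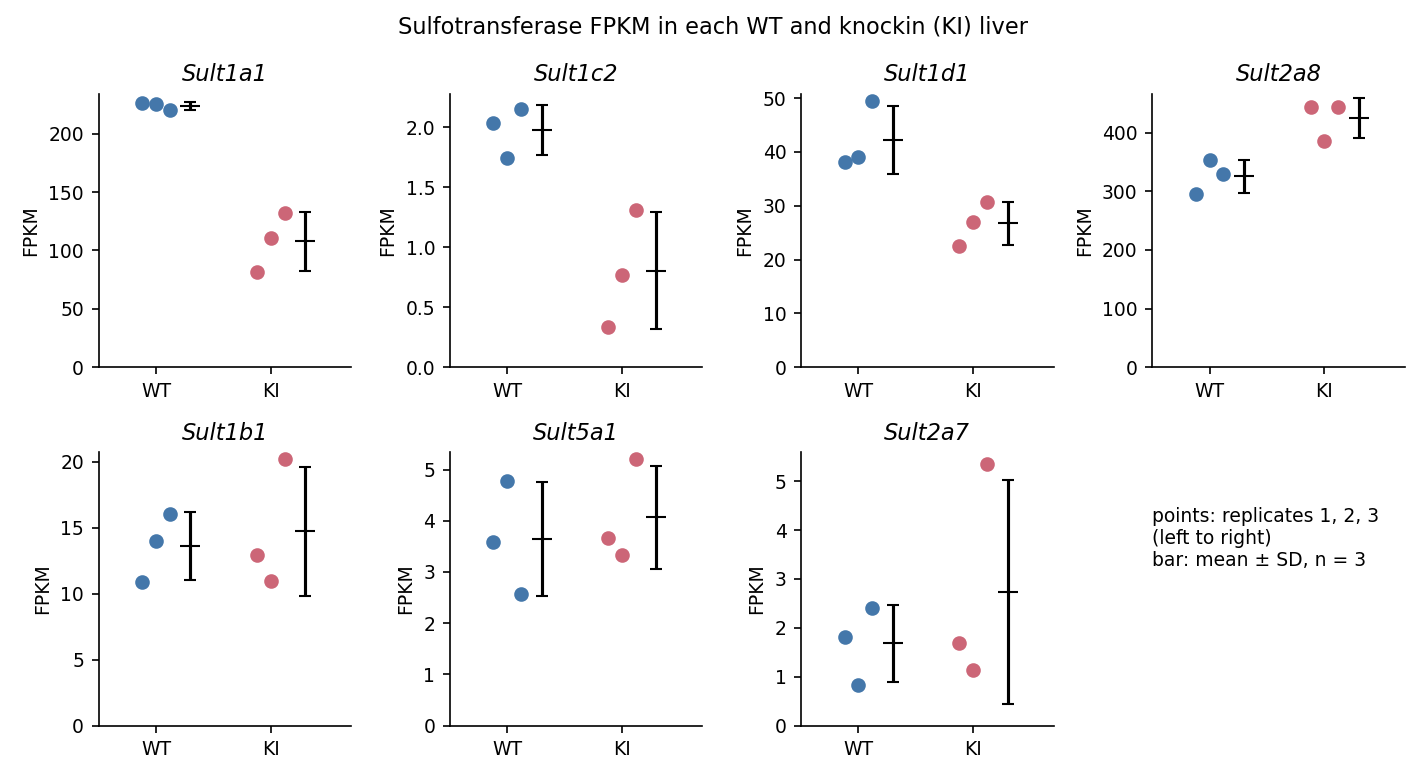
FPKM (y axis, linear, from 0) of the 6 *Sult* members tested and of *Sult2a7* in each of 3 WT (blue) and 3 KI (red) livers, with the mean and SD of each group in black. The groups are apart for *Sult1a1*, *Sult1c2*, *Sult1d1* and *Sult2a8* and overlap for *Sult1b1*, *Sult5a1* and *Sult2a7*.

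For the other members tested, WT and KI overlapped. *Sult1b1*, which acts on thyroid hormones, had 10.9, 14.0 and 16.0 FPKM in WT and 12.9, 11.0 and 20.2 FPKM in KI. The log2 difference was 0.07 (95% interval -0.42 to 0.57, adjusted p = 0.875), which leaves room for a change in either direction. *Sult5a1* had 3.59, 4.78 and 2.57 FPKM in WT and 3.66, 3.33 and 5.21 FPKM in KI, with a log2 difference of 0.14 (95% interval -0.32 to 0.59, adjusted p = 0.741). The deposited interval of *Sult5a1* covers 4435 kb, against 18.1 kb annotated (chr8:123140192-123158315), and 107 rows share it, so its values may hold reads of other genes. *Sult2a7*, the other *Sult* gene with a mean of at least 0.5 FPKM, had 1.82, 0.829 and 2.40 FPKM in WT and 1.68, 1.15 and 5.35 FPKM in KI (log2 difference 0.35, adjusted p = 0.646).

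The remaining 4 members stood at the detection limit and were not tested. *Sult1e1*, the oestrogen sulfotransferase, was not listed in WT replicates 1 and 2 and KI replicates 1 and 2, and stood at 0.0517 FPKM in WT replicate 3 and 0.225 FPKM in KI replicate 3. *Sult3a1*, an amine sulfotransferase, was listed above 0 only in WT replicate 3, at 0.202 FPKM. *Sult2a1* was not listed in the 3 WT livers and stood at 0.0708, 0.0692 and 0.0720 FPKM in KI, about 1.16 to 1.18 fragments per library. *Sult2a2* was likewise not listed in WT and had 0.102, 0.199 and 0.103 FPKM in KI, about 1.22 to 2.42 fragments. At this depth 1 fragment separates listed from not listed, and *Sult2a1* and *Sult2a2* share most of their sequence, so no difference between genotypes was read from them. *Sult2a1* and *Sult3a1* are known as female-predominant transcripts of the mouse liver. Of 11 other *Sult* genes looked for, 4 were listed, and of these *Sult2b1*, *Sult4a1* and *Sult6b1* had at most 2.48 fragments in a library.

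Of the 6 members tested, 4 were called, 1 higher and 3 lower in KI, beside 7.72% of all genes tested in either direction, 1.64% higher and 6.09% lower. The same 4 members were those whose groups did not overlap, beside 6.31% of all genes with every KI library above every WT library and 22.5% with every KI library below. The median log2 difference of the 6 was -0.28, beside -0.08 over all genes tested. In bulk liver, fewer cells of a type and less RNA per cell cannot be told apart, and the part of the marker differences given above in these results was not tested.

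**Figure D2:**
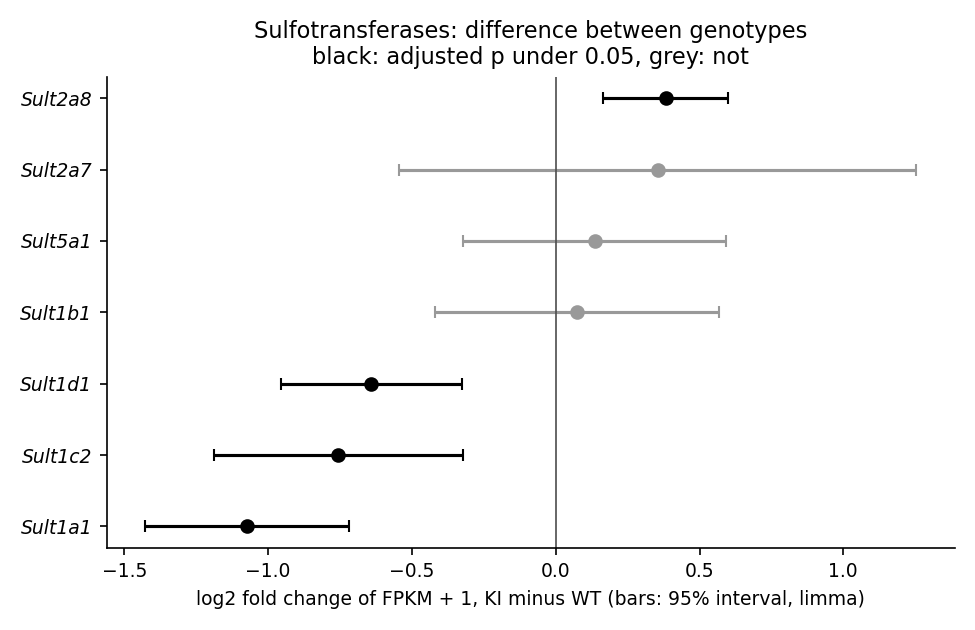
Difference between KI and WT on the log2(FPKM + 1) scale (x axis) for 7 *Sult* genes (y axis), with 95% intervals from limma, 3 livers a group. Intervals of *Sult1a1*, *Sult1c2* and *Sult1d1* lie below 0 and that of *Sult2a8* above 0 (black), and those of *Sult1b1*, *Sult2a7* and *Sult5a1* include 0 (grey).

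FPKM are per length, so the members can be ranked within a liver. In WT the order of mean FPKM was *Sult2a8*, *Sult1a1*, *Sult1d1*, *Sult1b1*, *Sult5a1* and *Sult1c2*, and no neighbours in that order overlapped. The order was the same in KI, again without overlap between neighbours. The place of *Sult5a1* carries the limit on its interval given above, and *Sult2a7*, which is not in this order, overlapped *Sult1c2* in WT and both *Sult5a1* and *Sult1c2* in KI. The leading pair lay closer together in WT than in KI. *Sult2a8* exceeded *Sult1a1* 1.45-fold in WT (SD 0.131, range 1.31 to 1.56) and 4.10-fold in KI (SD 1.17, range 3.37 to 5.45, exact permutation p = 0.1). With 3 livers against 3 this two-sided p cannot be any lower. The FPKM of all listed *Sult* genes summed to 613 ± 30.8 in WT and 582 ± 51.3 in KI (SD, n = 3 each), and these sums overlapped (range 579 to 638 against 540 to 639, exact permutation p = 0.5). *Sult1a1* made up 36.6% of that sum in WT and 18.5% in KI, *Sult1d1* 6.89% and 4.59%, and *Sult2a8* 53.1% and 73.1%. Each of these shares came without overlap between genotypes (exact permutation p = 0.1).

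**Figure D3:**
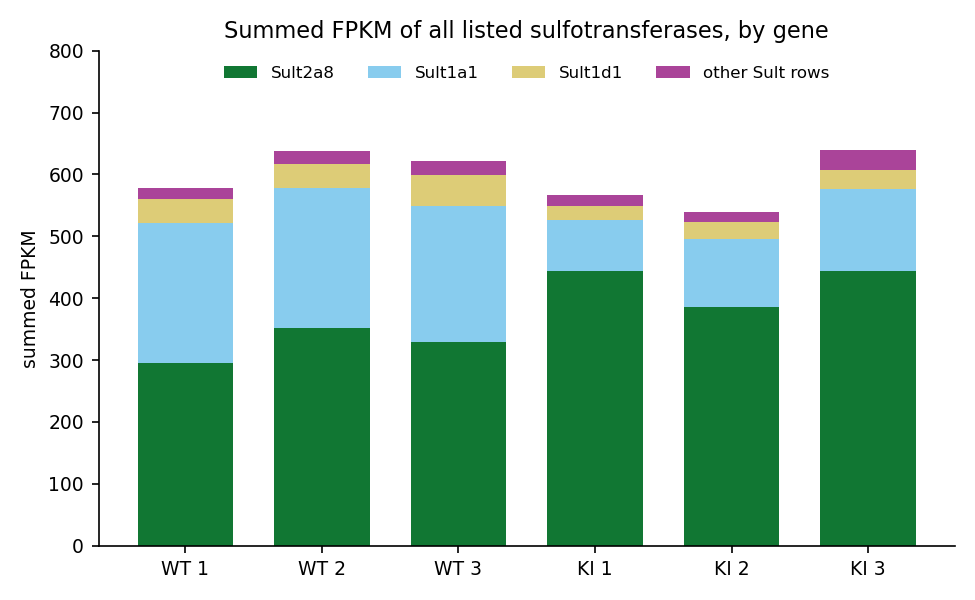
Summed FPKM (y axis) of all listed *Sult* genes in each of 3 WT and 3 KI livers (x axis), with *Sult2a8*, *Sult1a1*, *Sult1d1* and all other *Sult* rows stacked. The height of the bars overlaps between genotypes, at 579 to 638 in WT and 540 to 639 in KI, while the *Sult1a1* part is smaller and the *Sult2a8* part larger in KI.

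Stretches before a start site are shown for *Sult1a1*, *Sult1d1* and *Sult2a8*, members called in opposite directions. For *Sult2a8* the window that holds AGGTCA is printed and that of its other start is not, nor is the window of *Sult1c2*. RefSeq gave 300-base promoter windows (GRCm38.p6) for 8 members, 10 windows in all, and none for *Sult2a1* and *Sult2a2*. They were searched on both strands for AGGTCA, the core letters bound by many nuclear receptors, and for TTCNNNGAA, the core letters bound by STAT proteins. No *Sult* window held both, and of 32851 promoters of the same length, 16.3% held AGGTCA and 8.30% held TTCNNNGAA. The 250 bases before the start follow, 5′ to 3′ along the gene, with AGGTCA in capitals.

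Sult1a1, chr7:126676419-126676668, minus strand: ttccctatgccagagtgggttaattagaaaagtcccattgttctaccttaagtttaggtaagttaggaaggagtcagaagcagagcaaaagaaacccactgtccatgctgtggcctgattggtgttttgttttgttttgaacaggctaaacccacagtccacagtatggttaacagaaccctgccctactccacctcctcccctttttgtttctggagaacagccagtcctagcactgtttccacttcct

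Sult1d1, chr5:87569007-87569256, minus strand: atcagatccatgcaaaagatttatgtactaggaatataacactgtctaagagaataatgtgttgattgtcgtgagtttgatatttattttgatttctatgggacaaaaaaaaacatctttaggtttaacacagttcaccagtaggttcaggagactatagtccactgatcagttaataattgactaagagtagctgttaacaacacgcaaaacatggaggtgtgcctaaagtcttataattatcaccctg

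Sult2a8, second start, chr7:14438552-14438801, minus strand: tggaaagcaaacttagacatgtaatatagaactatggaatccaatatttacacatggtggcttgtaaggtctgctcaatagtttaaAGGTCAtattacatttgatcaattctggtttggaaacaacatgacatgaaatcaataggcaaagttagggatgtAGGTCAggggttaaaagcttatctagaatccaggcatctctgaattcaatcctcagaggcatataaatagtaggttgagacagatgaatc

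The window of the second *Sult2a8* start held AGGTCA at 2 places, 164 and 90 bases before the start, and the window of its other start held neither motif. The windows of *Sult1a1*, *Sult1d1*, *Sult1c2* and *Sult5a1* held neither. Among members that were not called, AGGTCA stood 123 bases before and 38 bases after a start of *Sult1b1* and 113 bases before that of *Sult1e1*, and TTCNNNGAA 109 bases before that of *Sult3a1*. These matches are letters only, and the deposited values are per gene and do not separate the start sites.

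The supply of the sulfate donor, the removal of sulfate and the receptors and other factors that act on *Sult* genes were followed in a list of 47 genes. Of these, 42 were tested, 0 were called higher and 4 lower in KI (limma), or 9.52%, beside 7.72% of all genes, and 14 had an unadjusted p under 0.05, beside 2883 of the 12225. Of the 42, 34 had a log2 difference below 0, and their median was -0.13, beside -0.08 over all genes tested. None of the 6 genes of PAPS synthesis, transport and PAP removal was called (limma), and none of the 6 had an unadjusted p under 0.05. *Papss2*, which encodes the main PAPS synthase of the liver, had 43.1, 36.6 and 40.2 FPKM in WT and 31.5, 31.2 and 45.8 FPKM in KI (log2 difference -0.16, adjusted p = 0.577). Its homologue *Papss1* differed by -0.03 (adjusted p = 0.906). *Slc35b2* and *Slc35b3*, which carry PAPS into the Golgi, differed by -0.19 (adjusted p = 0.435) and 0.28 (adjusted p = 0.340). *Bpnt1* and *Bpnt2*, whose products clear the PAP left over by sulfonation, differed by -0.16 (adjusted p = 0.273) and -0.11 (adjusted p = 0.521).

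On the way from cysteine to sulfate, 2 of 11 genes tested were called, both lower in KI, or 18.2%, beside 6.09% of all genes called lower. *Suox*, sulfite oxidase, which makes sulfate from sulfite, had 66.3, 65.8 and 80.7 FPKM in WT and 46.0, 46.5 and 53.6 FPKM in KI and fell by 0.53 on the log2 scale (adjusted p = 0.0228). *Got2*, the mitochondrial aspartate aminotransferase, which also takes cysteine sulfinate, had 318, 325 and 328 FPKM in WT and 226, 263 and 244 FPKM in KI and fell by 0.41 (adjusted p = 0.0215). In these genes every KI liver was below every WT liver, as in 4 of the 11 genes tested on this way and in 22.5% of all genes. None of the 4 sulfate transporters tested was called (limma, 1 at an unadjusted p under 0.05). *Slc26a1*, the sulfate-anion exchanger of the hepatocyte, had 46.4 to 61.8 FPKM in KI against 61.4 to 66.8 FPKM in WT (log2 difference -0.28, adjusted p = 0.160).

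Of 10 genes of sulfate removal tested, *Arsa* was called, lower in KI, or 10%, beside 6.09% of all genes called lower. *Arsa*, the lysosomal arylsulfatase that acts on sulfatides, had 18.4, 19.2 and 21.4 FPKM in WT and 10.3, 12.6 and 7.04 FPKM in KI and fell by 0.95 on the log2 scale (adjusted p = 0.0187). Of 11 genes tested in the receptor group, which also holds a transcription factor that is not a receptor, *Nr1i3* was called. It was lower in KI, and 1 of 11 is 9.09%, beside 6.09% of all genes called lower. *Nr1i3*, which encodes the xenobiotic-sensing receptor CAR, had 120.0, 101 and 140 FPKM in WT and 76.8, 61.0 and 67.0 FPKM in KI and fell by 0.80 (adjusted p = 0.0127). In *Arsa* and *Nr1i3* no KI liver reached the lowest WT liver, which held for 11 of the 42 list genes tested, beside 22.5% of all genes. The related receptor genes *Nr1i2* (PXR), *Nr1h4* (FXR), *Ppara* and *Hnf4a* differed by -0.11, -0.26, -0.29 and 0.04 (adjusted p = 0.669, 0.146, 0.407 and 0.798). *Nr1i3* lost its call without WT replicate 1 (adjusted p = 0.0520). *Arsa* and *Got2* lost it without WT replicate 1, 2 or 3 or KI replicate 1 (adjusted p = 0.0562 to 0.0789 and 0.0699 to 0.0801), and *Suox* without WT replicate 1 or 3 or KI replicate 1 (0.0610 to 0.0918). With quantile normalization, *Got2* differed by -0.21 (adjusted p = 0.162) and *Suox* by -0.37 (adjusted p = 0.0639), and with median-of-ratios scaling *Suox* differed by -0.43 (adjusted p = 0.0504). Without the filter all 4 were lost (adjusted p = 0.0527 to 0.0689). Over 15 alternatives, the adjusted p stayed under 0.05 in 13 for *Nr1i3*, 10 for *Arsa* and 9 each for *Got2* and *Suox*. Each of these counts includes the sum of *Sult* paralogs, which for these genes nearly repeats the main fit.

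**Figure D4:**
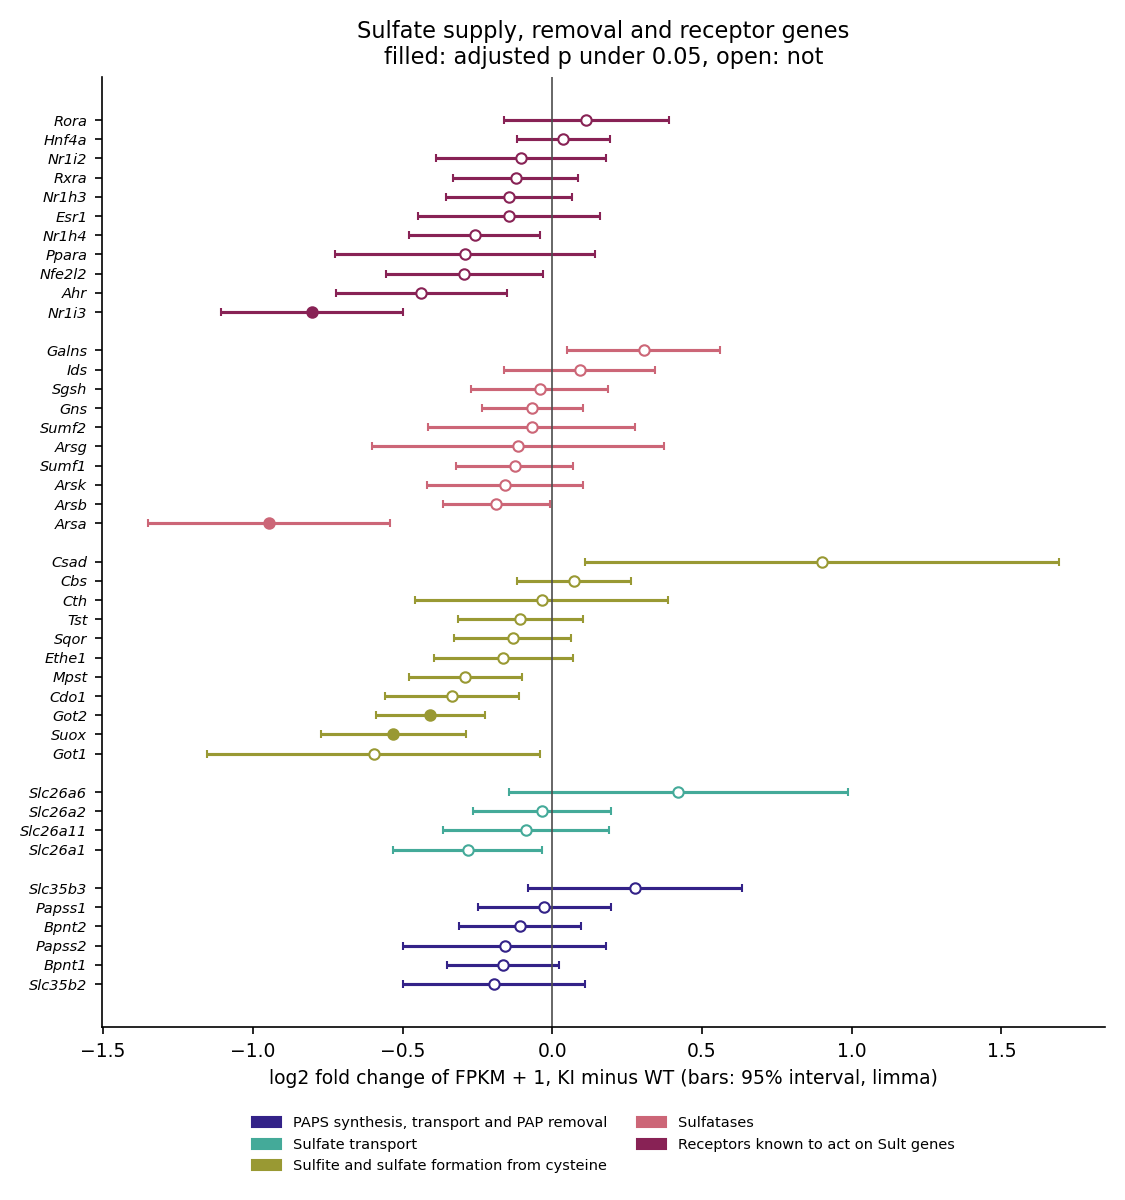
Difference between KI and WT on the log2(FPKM + 1) scale (x axis, 95% intervals from limma, 3 livers a group) for the 42 genes tested of sulfate supply, removal and *Sult* regulation, coloured by role. Filled points, those with an adjusted p under 0.05, are *Nr1i3*, *Arsa*, *Got2* and *Suox*, all below 0.

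For each member called, the 3 genes outside the family with the most similar pattern over the 6 livers were taken, by the root mean square difference of centred log2(FPKM + 1) values. This is a description of 6 points that share the genotype difference. Nearest to *Sult1a1* were *Fads2*, a fatty acid desaturase (0.069), *Fabp2*, a fatty acid binding protein (0.0996), and *Spc24*, a kinetochore component (0.103). *Fads2* had 494, 441 and 416 FPKM in WT and 166, 212 and 266 FPKM in KI, with the order among the KI livers seen for *Sult1a1*. Nearest to *Sult1c2* were *Gpt2* (0.0785), *Pdk1* (0.0932) and *Plscr2* (0.0950), and nearest to *Sult1d1* were *Tor3a* (0.0720), *Mpc1* (0.0743) and *Dcbld1* (0.0750). *Gpt2* encodes a mitochondrial alanine aminotransferase, *Pdk1* a pyruvate dehydrogenase kinase and *Mpc1* a subunit of the mitochondrial pyruvate carrier. Nearest to *Sult2a8* were *Arhgap42* (0.0315), *Gm12696* (0.0362) and *Slc33a1* (0.0485), which had an adjusted p of 0.0770, 0.0645 and 0.0710. *Slc33a1* encodes an acetyl-CoA transporter.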

How the data were processed

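Liver RNA of 3 WT and 3 KI mice was sequenced, 1 library a mouse, and FPKM tables, 1 for each, were deposited by the authors. Tables list only values above 0, and a gene not listed was taken as 0. The submitters' processing notes name bcl2fastq, Salmon 0.14.0, DESeq2 1.30.0 and GRCm38. Which of them made the FPKM, and the annotation, are not given in the sources used here. FPKM hold no counts, so no count test was run.

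Genes averaging 0.5 FPKM or more were fitted on the log2(FPKM + 1) scale (R 4.3.3, limma 3.58.1, lmFit and eBayes with a trend), KI minus WT, with Benjamini-Hochberg adjustment over 12225 genes and a threshold of 0.05. The fit was tested on simulated data. Such fold changes understate the change of low genes. Single ratios and shares had an exact permutation test. The p-values of limma set the genotype difference against the spread between mice within the groups, which limma adjusts with information from all genes. Exact p-values come from every reassignment of the livers to the genotypes. Alternatives were a pseudocount of 0.1, no filter, a mean of at least 1 FPKM, TPM (rescaled to equal sums), median-of-ratios and quantile scaling, no trend, a replicate block, paralogs summed and each library left out. The paralog sum merged only the *Sult2a* rows and the *Sult3a* rows, so other genes stayed nearly as in the main fit. Identifiers were matched to GENCODE M21 (21454 of 21528), which also gave the coding sequences, and to RefSeq promoters. Python 3.11.15, pandas 2.3.3, scipy 1.17.1 and Biopython 1.88 were used.

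Genes named are every member, other *Sult* rows at 0.5 FPKM or more, list genes that were called, 14 fixed list genes and the 3 genes most like each called member. Of the 14, *Sts* was looked for and has no value here. The markers *Ddx3y*, *Adipoq*, *Plin1*, *Lep*, *Adrb3*, *Cfd*, *Pnpla3*, *Cidea*, *Cps1* and *Lyve1* and the genes *Csad*, *Sult2b1*, *Sult4a1*, *Sult6b1*, *Sgf29* and *2510046G10Rik* were named after their values were seen, and *Trim24* as the edited gene. The endothelial markers *Clec4g*, *Pecam1*, *Stab2*, *Oit3*, *Kdr* and *Fcgr2b* were named to stand beside *Lyve1*. The members and lists were chosen with earlier results of these data known.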

Additional observations from a re-analysis of the deposited data

How the results depend on the processing

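Of the 6 members tested, 4 were called, and the count was 1 without the filter, 2 with quantile normalization, 2 with limma without the trend, 2 with the replicate block, and 1 to 3 when each library was left out in turn. *Sult1a1* was called in each. Over all genes, 944 calls became 347 without the filter, 1546 with TPM and 578 with the replicate block, and 294 to 1280 with a library left out (311, 475 and 300 without WT replicate 1, 2 and 3, and 294 without KI replicate 1). Calls in the sulfonation list, 4, became 0 without the filter, 7 with TPM and 2 with quantile normalization, and 0 to 5 with a library left out (0, 2 and 1 without WT replicate 1, 2 and 3, and 1 without KI replicate 1). *Sult1b1* changed sign without WT replicate 1 (-0.07) and without KI replicate 3 (-0.16), *Sult5a1* without WT replicate 3 (-0.041) and KI replicate 3 (-0.02), and *Sult2a7* without KI replicate 3 (-0.11), none of them called. With a library left out their log2 differences reached 0.25, 0.31 and 0.67. The causes were not tested. The directions of *Sult1a1*, *Sult1c2*, *Sult1d1* and *Sult2a8* held in all 15 alternatives each, with the *Sult2a* sum standing in for *Sult2a8* where paralogs were summed. The share of calls that were higher, 21.2%, was 37.7% with median-of-ratios scaling and 40.3% with quantile normalization, where the median of all genes was 0.01 in both instead of -0.08, and 12.5% with TPM, where it was -0.13. Same-numbered libraries did not deviate together (correlations -0.12, -0.10 and 0.003, 0 of 6 libraries matching their own number best). These values show no pairing by number but cannot exclude it. With the block the adjusted p of *Sult1c2* was 0.0622 and that of *Sult2a8* 0.108, while that of *Sult1a1* was 0.0133 and that of *Sult1d1* 0.0175. The SE of *Sult1d1* was 0.091 with the block and 0.137 without it. An exact permutation test of 3 against 3 cannot pass 0.05, and for *Sult3a1* no sum of paralogs reached the filter.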

Other observations

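*Csad*, a gene of the sulfonation list chosen after its values were seen, stood apart from the rest without passing the test. *Csad*, which turns cysteine sulfinate towards taurine and away from sulfate, had 131, 53.0 and 109 FPKM in WT and 223, 194 and 116 FPKM in KI, the largest upward difference of the 42 genes tested (log2 difference 0.90, limma adjusted p = 0.159). The groups overlapped, since KI replicate 3 lay below WT replicate 1.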
